A study of Mus musculus with 3 samples.

Results

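The 6 genes described here encode the SoxC transcription factors Sox4, Sox11 and Sox12 and the SoxD transcription factors Sox5, Sox6 and Sox13, taken by gene symbol from the 22180 genes measured on 3 expression arrays. All 6 were found. Total RNA of neurospheres was labelled with biotin for each array. Neurospheres are free-floating colonies, here grown from cells of wild-type (WT) CD1 mice, taken from the V-SVZ, the ventricular-subventricular zone beside the lateral ventricles where postnatal neural stem cells lie. The pups were at postnatal day 8 (the growth protocol also allows the day before), and the cells were plated at 10 per microlitre and grown for 7 days in medium that held FGF at 10 ng/ml and EGF at 20 ng/ml. The 3 arrays form 1 group. Pups were cultured apart, but the labels do not tie an array to a pup, so p-values rest on a spread between arrays that may be technical.

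Sox proteins bind DNA through an HMG box, a domain that bends the helix. SoxC proteins are transcriptional activators that promote the expression of neuronal genes in cells that leave the precursor state, and they also support the survival of precursors. SoxD proteins lack a known activation or repression domain of their own. They pair through a coiled coil and act beside other factors, which include the SoxE proteins in cartilage and in oligodendrocyte precursors, where Sox5 and Sox6 hold back myelin genes. Sox6 is also used by interneurons that arise in the medial ganglionic eminence (MGE).

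Promoter sequences are shown for the SoxC genes because all 3 were detected and each has 1 promoter window in the table used, so that they can be read side by side. Each window runs from 250 bases before to 50 bases after the annotated start, from RefSeq on GRCm38.p6, 5′ to 3′ on the gene's strand. Capitals mark CCAAT (or ATTGG on the other strand), the letters of the CCAAT box, and CAGCTG, 1 form of the E-box that proneural factors such as Neurog2 can bind.
Sox4, chr13:28953650-28953949, minus strand: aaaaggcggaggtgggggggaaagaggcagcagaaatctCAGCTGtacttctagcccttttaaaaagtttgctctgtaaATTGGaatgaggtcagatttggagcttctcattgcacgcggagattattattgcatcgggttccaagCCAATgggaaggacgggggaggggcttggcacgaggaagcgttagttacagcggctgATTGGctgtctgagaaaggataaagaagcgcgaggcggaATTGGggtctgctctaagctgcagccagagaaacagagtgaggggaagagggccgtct
Sox11, chr12:27342669-27342968, minus strand: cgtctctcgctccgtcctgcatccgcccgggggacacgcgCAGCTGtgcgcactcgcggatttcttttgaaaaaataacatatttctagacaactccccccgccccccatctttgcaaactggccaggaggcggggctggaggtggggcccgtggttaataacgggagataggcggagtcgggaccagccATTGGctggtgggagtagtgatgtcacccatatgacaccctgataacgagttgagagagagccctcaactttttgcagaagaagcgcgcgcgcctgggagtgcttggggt
Sox12, chr2:152397997-152398296, minus strand: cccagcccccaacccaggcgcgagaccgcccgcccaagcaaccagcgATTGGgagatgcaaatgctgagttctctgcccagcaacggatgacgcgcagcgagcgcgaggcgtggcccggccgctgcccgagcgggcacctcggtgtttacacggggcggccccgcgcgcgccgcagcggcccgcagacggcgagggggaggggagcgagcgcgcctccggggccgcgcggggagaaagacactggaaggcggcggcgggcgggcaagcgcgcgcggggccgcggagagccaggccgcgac
The CCAAT letters stood 4 times in the Sox4 window and once each in those of Sox11 and Sox12, and were present in 37.4% of all 32851 promoter windows of this length. CAGCTG began 211 bases before the start of Sox4 and 210 bases before that of Sox11, was not found in the Sox12 window, and was present in 16.3% of all windows. CG pairs numbered 12 in the Sox4 window, 21 in that of Sox11 and 47 in that of Sox12, against a median of 7 over all windows. Among SoxD genes, the windows of Sox13 and Sox5 held 40 and 3 CG pairs, and neither held CCAAT or CAGCTG on either strand. Sox6 had 6 windows with 2 to 13 CG pairs, 3 of which held CCAAT and 1 CAGCTG. The letters AACAAT (or ATTGTT), a core that Sox proteins recognise, and TATAAA (or TTTATA) were in no window of SoxC genes, Sox5 or Sox13, in 1 and 2 of the Sox6 windows, and in 10.7% and 13.6% of all windows. These motifs were chosen after the sequences were seen, and a match describes letters, not a bound site.

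The 3 SoxC genes were all detected. Sox4, which drives neuronal gene expression together with Sox11 and is also active in many proliferating tissues, had log2 signals of 11.23 on arrays 1, 2 and 3. Sox11, which newborn neurons need for their gene programme, had 8.59, 8.71 and 8.53, a mean of 8.61 ± 0.092 (SD, n = 3). Array 2 was the highest and array 3 the lowest, with a range of 0.18. Sox12, the SoxC member with the weakest transactivation in reporter assays, had the same value of 8.52 on all 3 arrays.

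The 3 SoxD genes were detected as well. Sox5, which restrains oligodendrocyte differentiation and, in cortex, represses Fezf2, a gene of deep-layer neurons, had 8.21 on all 3 arrays. Sox6, its close relative in glial precursors and MGE interneurons, had 10.97, 10.99 and 10.97, a mean of 10.98 ± 0.012 (SD, n = 3). Sox13, a SoxD gene also known from arteries and from T cells of the γδ type, had 7.16 on all 3 arrays. Within each of these genes the arrays differed by at most 0.021. Probes bind with different strength, so the signals are not a ranking of the 6 genes.

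**Figure D1:**
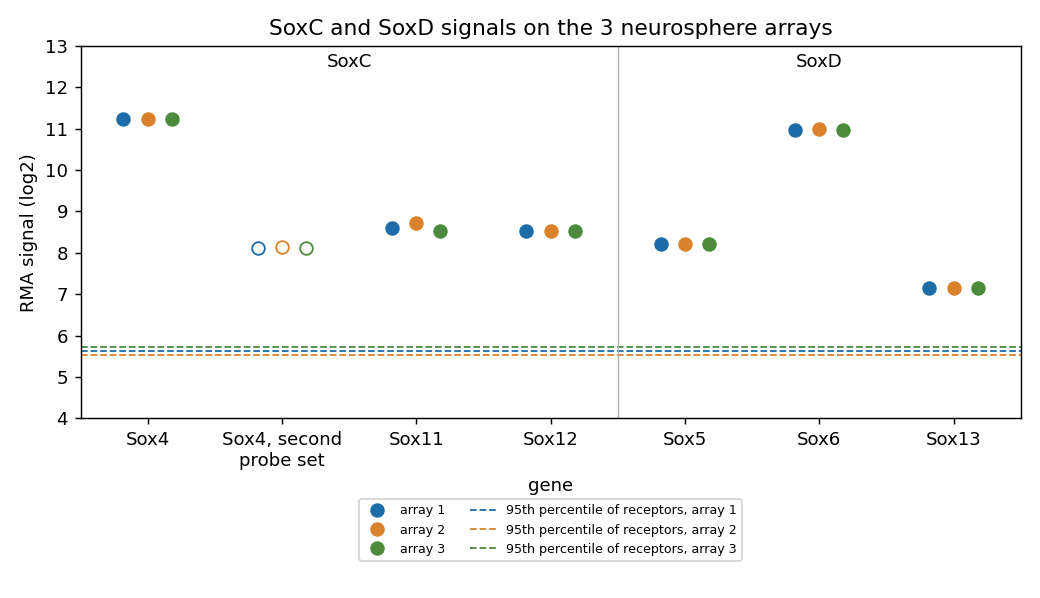
RMA signals (log2, vertical axis) of the 6 genes on the 3 arrays (coloured points), with the second Sox4 probe set as open points. Dashed lines give the reference level of each array, at 5.63, 5.53 and 5.71, and all points lie above them.

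To ask whether these signals exceeded unspecific binding, each gene was set against a reference level: the 95th percentile, on the same array, of 1405 probe sets for odorant receptors and vomeronasal receptors, which the nose uses. It was 5.63, 5.53 and 5.71 on arrays 1, 2 and 3. By limma's one-sided moderated test, with Benjamini-Hochberg adjustment over all genes and a threshold of 0.05, 6 of 6 members were above it, where 59.1% of all 22180 genes were. With 6 genes and this background, the count alone says little about the family, and the margins carry the description. The fit gave all genes of like signal 1 shared spread, so its smallest p-values mean little and are not printed. Of the 1394 receptor genes, 54 (3.87%) were themselves called, so a call at a small margin can be unspecific.

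The margin, the signal minus the reference level, was 5.61 ± 0.091 for Sox4, 2.99 ± 0.18 for Sox11 and 2.89 ± 0.090 for Sox12 (log2, mean ± SD, n = 3). For the SoxD genes it was 2.59 ± 0.090 for Sox5, 5.35 ± 0.10 for Sox6 and 1.53 ± 0.090 for Sox13. The median margin of the 6 genes was 2.94, beside 0.76 over all genes. The SDs of Sox12, Sox5 and Sox13 come wholly from the reference level, since their own signals did not move. The narrowest single-array margin was 1.44, for Sox13 on array 3.

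Sox13 was the member nearest to the level. With the 99th percentile of the receptors as the level, 6 of 6 members were above it, where 44.9% of all genes were. Against it the margin of Sox13 was 0.76 ± 0.30 (limma, adjusted p = 0.00108), and against keratin-associated protein, defensin and bitter taste receptor genes it was 0.72 ± 0.35 (limma, adjusted p = 0.00918, the largest over its 10 alternatives). On its weakest array it still stood 0.47 above the first of these levels and 0.35 above the second. Both p-values rest on the shared spread that the fit gave, and neither level was tried without moderation. The other 5 members kept margins of 1.77 or more under every alternative, and the lowest was that of Sox5 against the second set of genes.

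**Figure D2:**
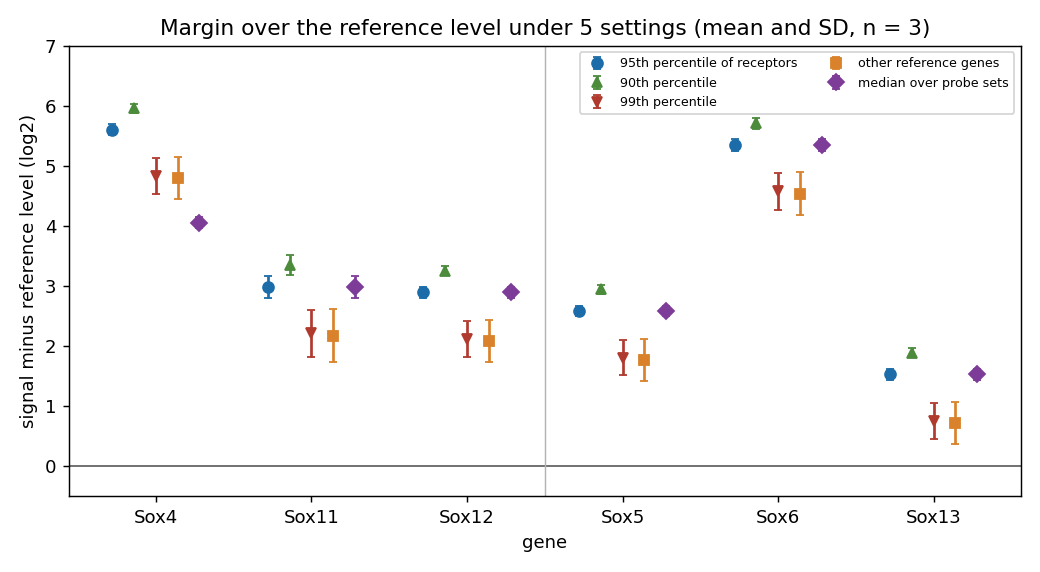
Margin of each member over the reference level (log2, vertical axis; mean and SD, n = 3) with the 95th percentile of receptor probe sets and under 4 of the 10 alternatives. All means lie above 0, with Sox13 lowest and Sox4 moving to 4.06 when its 2 probe sets are combined by their median.

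Sox4 was read by 2 probe sets, and the other 5 members by 1 each. The second Sox4 probe set had 8.12, 8.15 and 8.13 on arrays 1, 2 and 3, a mean of 8.13 ± 0.016, against 11.23 for the one used. The gap between them was 3.11, 3.08 and 3.11 on the 3 arrays, so both were steady but far apart. Both were above the reference level on every array, the second by 2.51 ± 0.10. With the median of both, the margin of Sox4 was 4.06 instead of 5.61. The sources used here do not say which part of the transcript each set reads. For Sox5, the transcript Sox5os3, named for the opposite strand and picked after its value was seen, had 4.77 on every array and was not above the level.

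Identical values were common in the deposited table. Of all genes, 8729 (39.4%) had 1 identical value on the 3 arrays, as did 3 of the 6 members, and 75.0% had identical values on at least a pair of arrays. The arrays held 23211, 26020 and 25253 different values for 41345 probe sets. On array 1 the value of Sox5 was shared by 7 other probe sets, that of Sox11 by 5 and that of Sox13 by 1, and those of Sox4, Sox12 and Sox6 by 0. An SD of 0 can therefore not be read as the true spread between arrays, and the cause of the identical values was not tested. The median SD of all genes was 0.020, and 74.7% of genes had an SD under the 0.092 of Sox11.

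Sox11 was the only member with 3 different values, and its order of arrays was the common one. Of 3569 genes above the level with 3 different values, 2393 (67.0%) were highest on array 2 and lowest on array 3, as Sox11 was. Of 1964 such genes not above the level, 1235 (62.9%) had the opposite order, as the reference level itself did. The genes with the pattern most like Sox11, by the largest difference between deviations from the mean over the 3 arrays, were Pcnt (0.0002) and ND6 (0.0004). Within 0.05 of Sox11 lay 1283 genes (9.79% of the genes above the level), and within 0.05 of Sox5, Sox12 and Sox13 lay 65.5%. For these 3, 4868 genes tied at exactly 0, so none is named. For Sox6, 8 genes tied at 0, and Cfap206 and D230025D16Rik are only the first of them by symbol. For Sox4 the nearest were Sec11a and Gabbr1. Within 0.05 of Sox4 and Sox6 lay 65.5% and 68.5% of the genes. With 3 arrays of 1 group, such likeness separates genes poorly.

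**Figure D3:**
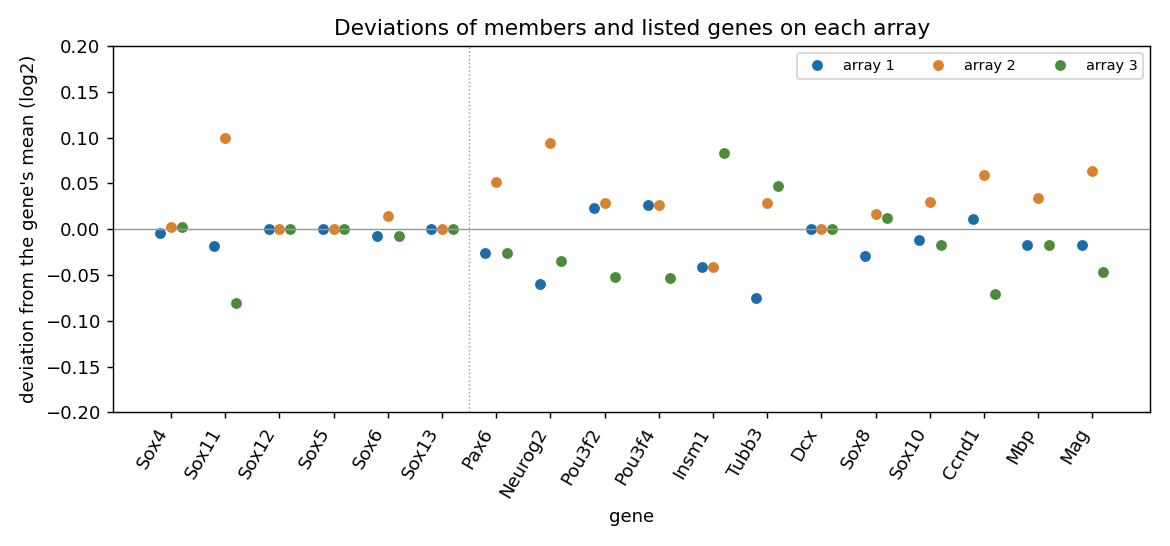
Deviation of each gene from its own mean (log2, vertical axis) on the 3 arrays for the 6 members (left of the dotted line) and 12 genes from the lists around them. Sox11 is high on array 2 and low on array 3, Neurog2, Ccnd1 and Mag are also highest on array 2, and Sox12, Sox5, Sox13 and Dcx do not move.

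Genes that act upstream of or beside SoxC proteins in neurogenesis were mostly detected, 9 of 10 measured at both the 95th and the 99th percentile, beside 59.1% and 44.9% of all genes. Pax6, a factor that with the chromatin remodeller Smarca4 (BRG1) switches on Sox11, Nfib and Pou3f4 in mouse adult-born olfactory neurons, had 9.30 ± 0.045, and Smarca4 had 10.94 ± 0.024. Both were above the level on each array. The downstream partners Nfib (11.87 on every array) and Pou3f4 (8.68 ± 0.046) were above it too, as were the related POU factors Pou3f2 (8.60 ± 0.045) and Pou3f3 (9.82) and the remodeller subunit Smarcc2 (10.21 ± 0.014). The proneural gene Neurog2 had 7.46, 7.62 and 7.49, and Insm1, a zinc finger gene of intermediate progenitors, had 7.51, 7.51 and 7.64. Neurog1, its proneural relative, had 5.37, 5.37 and 5.47 and was the 1 member of the list not above the level.

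All 7 genes listed as targets of SoxC proteins were above the level at both percentiles, beside the same shares of all genes. The neuronal cytoskeleton genes Tubb3 (9.22 ± 0.066), Dcx (9.90 on every array) and Map2 (11.98 ± 0.0061) were among them, as was Dbn1 (10.34 ± 0.012), which encodes the actin-binding protein drebrin. Tubb3 was lowest on array 1, at 9.14, which is not the array order of Sox11. Dcx had identical values on all arrays and so could show no order. Array order does not tell whether a gene follows Sox11, since most genes above the level with 3 different values shared that order. The targets outside the cytoskeleton were Tead2 (9.86 ± 0.0014), a Hippo pathway factor, Ezh2 (10.91), the methyltransferase of Polycomb complex PRC2, and Hes5 (11.07), a Notch effector that keeps cells undifferentiated. Targets tied to differentiation and targets tied to the precursor state were thus read from the same RNA. Whole-culture RNA does not show which cells held them, and cannot tell fewer expressing cells from less RNA per cell.

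Of the SoxD partners, 8 of 8 measured were above the level at both percentiles, beside 59.1% and 44.9% of all genes. The SoxE genes Sox8 (10.96 ± 0.026), Sox9 (11.88) and Sox10 (10.26 ± 0.026), beside which Sox5 and Sox6 act, were above the level. So were Ctbp1 (11.40) and Ctbp2 (8.08), corepressors of which the second binds Sox6, Hdac1 (9.54), a histone deacetylase recruited by Sox6, Ctnnb1 (12.21), which encodes beta-catenin, and Bcl11a (8.74 ± 0.012), a partner of Sox6 in the silencing of globin genes in red cell precursors. Tcf7, which encodes a Wnt pathway factor bound by Sox13, was not analysed here.

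The genes on which SoxD proteins are known to act come from several tissues, and those of glia were detected. Of 10 measured, 7 were above the level, where 59.1% of all genes were, and 4 at the 99th percentile, where 44.9% were. Pdgfra, the growth factor receptor gene of oligodendrocyte precursors that Sox5 and Sox6 sustain, had 10.97, 10.97 and 10.97 on the 3 arrays, and the cyclin gene Ccnd1 had 9.01, 9.06 and 8.93. The myelin genes that Sox5 and Sox6 hold back were detected too, Mbp with 8.70, 8.75 and 8.70 and Mag with 7.45, 7.53 and 7.42. Fezf2, a gene of deep-layer cortical neurons repressed by Sox5, had 6.21 (margin 0.59), and the cartilage genes Col2a1 and Hapln1 had 6.08 ± 0.13 and 6.30 ± 0.16. These 3 calls ended at the 99th percentile. The cartilage genes Acan (5.11) and Matn1 (5.09) and the embryonic globin gene Hbb-y (4.46 ± 0.056) were not above the level.

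The MGE interneuron genes around Sox6 had 6 of 9 measured members above the level (59.1% of all genes) and 3 at the 99th percentile (44.9% of all genes). Satb1 (8.76), Maf (8.16 ± 0.13) and Gad2 (7.76 ± 0.071) passed both levels. Lhx6, the homeobox gene directly upstream of Sox6 in these neurons, had 6.26 on every array, Gad1, a GABA synthesis gene, had 6.74 ± 0.063, and Pvalb had 5.88, 5.66 and 5.88 (limma, adjusted p = 0.0135). These 3 passed only the first level. The regional gene Nkx2-1 had 5.67 ± 0.046, the peptide gene Sst 5.74 and Lhx8 4.56 ± 0.25, and none was above it.

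**Figure D4:**
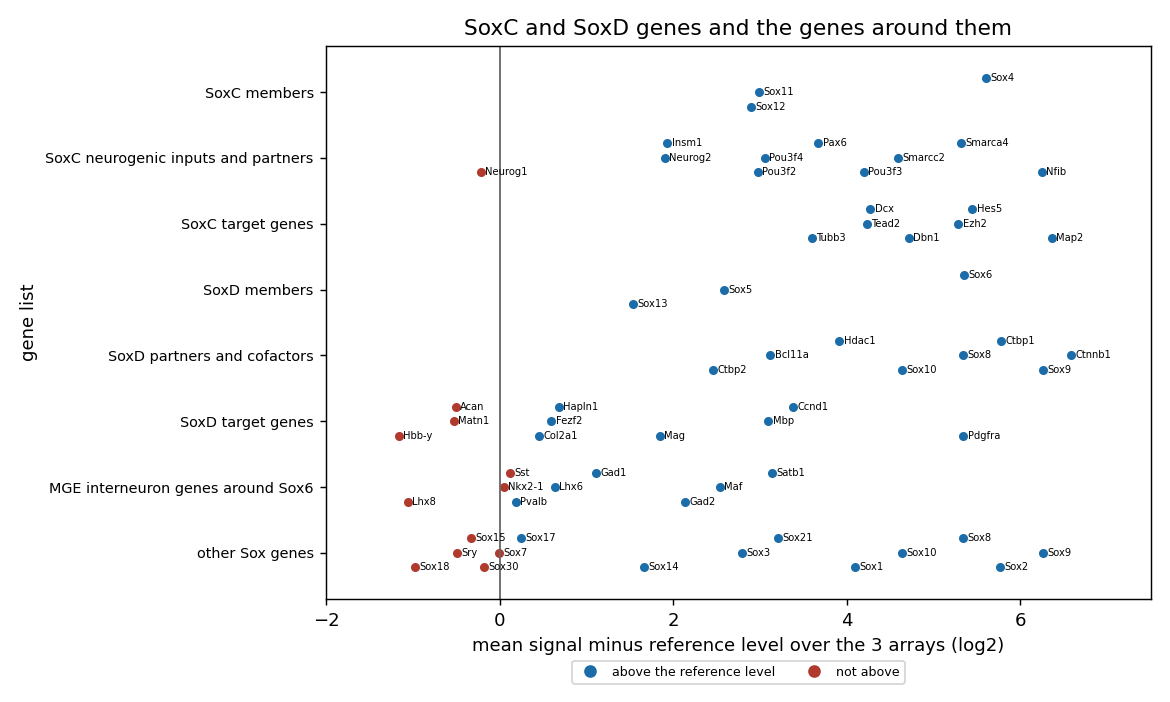
Mean signal minus reference level over the 3 arrays (log2, horizontal axis) for each measured gene of 8 lists (rows), coloured by whether limma's test called it above the level. All 7 SoxC targets and 8 SoxD partners lie above, while Neurog1, the SoxD targets Acan, Matn1 and Hbb-y, the MGE gene Lhx8 and 5 other Sox genes lie under 0.

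MicroRNAs that lower Sox6 were looked up because the array also carries their genes, a choice made after the values were seen. miR-219a and miR-338 promote oligodendrocyte differentiation in mouse by repressing Sox6 and Hes5, among others, and miR-499 represses Sox6 in mouse heart and muscle. Their mature sequences, from RefSeq on GRCm38.p6, are shown with the seed (bases 2 to 8) in capitals, since the seed is the part that pairs with the target. The 3 seeds differ.
mmu-miR-219a-5p, chr17:34025052-34025072 and chr2:29845689-29845709, minus strand: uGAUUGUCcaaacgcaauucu
mmu-miR-338-3p, chr11:120014781-120014802, minus strand: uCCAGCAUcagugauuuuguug
mmu-miR-499-5p, chr2:155622893-155622913, plus strand: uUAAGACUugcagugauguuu
Mir219a-2, the chromosome 2 copy, had 8.98, 9.11 and 8.98 and exceeded the reference level on every array. Mir219a-1, the chromosome 17 copy, had 6.51, 6.16 and 6.51 and was above it by 0.77 ± 0.13, a call that ended at the 99th percentile, under which it lay on array 3. Mir499 had 4.34, 3.87 and 4.34 and was not above. The 2 probe sets of Mir338 also carry a second symbol and were left out of the test, and their means were 5.38 ± 0.27 and 5.29 ± 0.18. A signal here is that of RNA from the gene, and whether it was the mature microRNA was not tested.

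Among the other 14 Sox genes 9 (64.3%) were above the level, close to the 59.1% of all genes. All 3 SoxB1 genes, which hold cells in the precursor state, all 3 SoxE genes and both SoxB2 genes were above it. Of the 3 SoxF genes of blood vessels, Sox17 had 5.97, 5.64 and 6.00 (margin 0.24 ± 0.12; limma, adjusted p = 0.00136), a call that ended at the 99th percentile, and Sox7 (5.61) and Sox18 (4.64) were not above. Sry, Sox15 and Sox30, single members of their groups, were not above either, at 5.12 ± 0.21, 5.29 and 5.44. Counting SoxC and SoxD, 5 of 9 Sox groups had every measured member above the level.

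Markers of the cell types that express these genes were read from the same arrays. All 8 stem cell and radial glia markers and all 8 oligodendrocyte precursor markers were above the level, with means of 6.78 to 13.73 and 8.15 to 12.44. Of 9 neuroblast markers 8 were above, all but Sp8 (5.11), and of 8 mature oligodendrocyte markers 5 were, with Mobp (5.58), Opalin (5.31) and Ermn (4.52) not above. Of other cells in which Sox genes are used, 3 of 8 chondrocyte markers, 1 of 9 endothelial markers (Kdr, 6.84 ± 0.064) and 0 of 3 measured erythroid markers (0 also at an unadjusted p under 0.05 by limma) were above. Microglia had 3 of 8, mural cells and fibroblasts 5 of 9 and ependymal cells 2 of 8. All these counts stand beside 59.1% of all genes, a share close to those of the mural and fibroblast (55.6%) and mature oligodendrocyte (62.5%) markers. At the 99th percentile, which 44.9% of all genes exceeded, the counts were 8 of 8 for oligodendrocyte precursor markers, 7 of 8 for stem cell markers, 7 of 9 for neuroblast markers and 4 of 8 for mature oligodendrocyte markers. They were 3 of 9 for mural and fibroblast markers (Pdgfrb, Acta2 and Rgs5), 1 of 8 for ependymal markers (Foxj1) and 0 for chondrocyte, endothelial, microglia and erythroid markers. The part of any one cell type in the Sox signals was not tested.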

How the data were processed

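The authors deposited log2 signals for 41345 probe sets on 3 arrays, made with RMA (background correction, normalisation between arrays, summary of each probe set) per the submitters' processing notes. Its version and options are not given in the sources used here. Genes were named from the platform's annotation: 23521 probe sets carried 1 symbol, 1814 several and 16010 none. Of probe sets sharing a symbol the one with the highest mean was kept, leaving 22180 genes. For arrays, the number of samples (n = 3) limits the precision.

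With 1 group there is no contrast. Each gene's signal minus its array's reference level was tested with limma 3.58.1 (R 4.3.3; intercept, eBayes with an intensity trend, one-sided, Benjamini-Hochberg over all genes, threshold 0.05). The smallest mean margin called was 0.15. The steps were tested on simulated data. Promoters and microRNAs came from RefSeq tables (GRCm38.p6), matched by symbol for all 6 members.

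Members, lists and tests were chosen with earlier results of these data known. Named are all members, genes of the SoxC, SoxD and MGE lists, some genes of the marker and other Sox lists (the rest are given as counts), and the 2 genes most like each member over the arrays, left out for 3 members where 4868 tied. Sox5os3 and the microRNA genes were chosen after their values were seen. Figures used matplotlib 3.10.9.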

Additional observations from a re-analysis of the deposited data

Results flagged for a closer look

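The second Sox4 probe set lies outside the main measurement, because the probe set with the higher mean was used. It had a mean log2 signal of 8.13 on the 3 arrays and exceeded the reference level on every one.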

How the results depend on the processing

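The 10 alternatives changed the reference percentile or the reference genes (142 probe sets of the second kind), the probe set taken for a gene, the scaling of the arrays or the statistical model, or dropped 1 replicate at a time. All 6 members stayed above the reference level under each of the 10. The number of genes above it was 13104, and it ran between 9658 with the other reference genes and 14792 at the 90th percentile. Leaving out 1 replicate gave 12504 to 13023 genes, with margins of 5.56 to 5.65 for Sox4, 2.89 to 3.07 for Sox11 and 1.49 to 1.58 for Sox13. Without moderation the adjusted p-values of the members were 0.000804 to 0.00177 (per-gene statistic in place of limma's, n = 3). This statistic used the spread of each gene's margin between arrays. For Sox12, Sox5 and Sox13 that spread came wholly from the reference level, so their p-values do not rest on a spread of their own signals. Centring the arrays on their medians changes no margin by construction, since the reference level moves with the array. The median over probe sets can move only Sox4, since the other members have 1 probe set. No paired analysis was possible because there is 1 group. Signal over background limits Sox13 most.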
